A study of Solanum tuberosum with 6 samples.

Results

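A miRNA precursor folds into a hairpin, and a small RNA can be cut from either arm of it. The 310 sequences described here are named after precursors with a known miRNA, and carry the form of name that the table uses for an arm other than the listed one. They were chosen by name alone: every sequence whose name holds MIR in capitals and ends in p5 (5' arm) or p3 (3' arm), out of 910 sequences in the deposited table. For 11 of them, from 7 precursor names, the table also held a listed sequence of the same named arm, such as sly-miR482e-3p beside sly-MIR482e-p3_2ss11TC17GC. Among these, sly-MIR9477-p5_1ss8CA shared 20 nt on the same strand with the listed sly-miR9477-5p_L-1R+1_1ss5CA, so it overlapped the listed arm. The other sly-MIR9477-p5 sequences shared 12 to 16 nt with that listed sequence. Both sly-MIR9478-p3 sequences shared 9 nt with the listed 3' arm of their name. Whether each sequence truly comes from the other arm was otherwise not shown by the files. The rest of the table held 212 listed miRNAs and 388 predicted new ones. The libraries hold small RNA of potato leaves (Solanum tuberosum, cv. Shepody). Control libraries C1, C3 and C5 came from plants that received water. Libraries T2, T4 and T6 came from plants whose foliage received potassium phosphite (KPhi), as 5 mL per plant of a commercial product diluted to 1% (v/v). Spraying took place on day 21 after emergence in both groups, and leaves of day 24 were harvested 72 h after it, from 3 biological replicates per condition.

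In plants the enzyme DCL1 cuts the hairpin into a short duplex of both arms, whose ends carry 3' overhangs of 2 nt. One strand is usually loaded into an Argonaute protein and guides it to complementary mRNAs, and the other, the passenger or star strand, is mostly degraded. Besides miRNAs of mostly 21 or 22 nt, plant leaves hold many small interfering RNAs of 24 nt, made by DCL3 from long double-stranded RNA. AGO1, which carries most miRNAs, prefers a 5' U, and AGO4, which carries the 24 nt RNAs, prefers a 5' A.

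The most abundant unlisted arms are shown first, since the read numbers that follow rest mainly on them. Sequences are given 5' to 3' as DNA letters, and the capitals mark the seed, bases 2 to 8. A suffix in a name gives the differences from the precursor as named in the table, so that 1ss14TC stands for 1 substitution, T to C, at position 14 counted from the 5' end. The prefixes sly, stu and nta name the species of the precursor: tomato, potato and tobacco.
sly-MIR159-p5: aGCTGCTGacctatggattcc
stu-MIR7985-p3_2ss13CT17GA: gAGCTCGTcgcatcggacttgcct
stu-MIR7985-p5: tTTGCCTTctgggtcgagctcgtc
sly-MIR9472-p3_1ss8AC: gATTCAGCcctttgt
stu-MIR8006-p3_2ss11TC22TA: aGATACCCtccgtcatactttaga
nta-MIR6159-p5_1ss6GT: aGGGCTAGaattcta
stu-MIR8021-p5: tCAAACTCgagacctctggttaag
stu-MIR7984b-p5_1ss2TG: aGGACCTTttacccctgcactatt
sly-MIR1919a-p5: tCCGGTAGtcctgtcgcagatg
sly-MIR5300-p3_1ss14TC: tGGTATGCtttgactgggaaag
sly-MIR166b-p5: gAATGTTGtctggctcgaggt
No seed was shared among the 61 unlisted arms with 10 reads or more, which held 61 distinct seeds. Of these, 2 had the seed of a listed miRNA. nta-MIR168d-p3 had that of sly-miR168b-3p_L+1, and nta-MIR5303a-p3_1ss22GA had that of stu-miR8016.

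The unlisted arms were a minor fraction of the table. They made up 34.1% of its sequences but held 7833 of its reads over the 6 libraries, or 0.308%. The listed miRNAs held 92.6% of the reads and the predicted ones 7.05%. Fractional reads were listed for 135 of the 310 unlisted arms. The rule behind the fractions is not given in the sources used here, and the level of those is uncertain. The mappable reads per library ranged from 4133739 in C5 to 8025802 in T2. The reads in the miRNA table ranged from 160923 in T4 to 612266 in C1. T4 stood apart from the other libraries: 33.5% of its raw reads were longer than 32 nt, against 3.13% to 13.6% in the other 5, and the miR166 family held 60.0% of its table reads against 74.0% to 83.5%.

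Reads were concentrated in few unlisted arms. sly-MIR159-p5 alone held 30.3% of them, and the 3 most abundant held 48.2%, or 3774 reads. The median was 1.97 reads over all 6 libraries, and 50.3% of the unlisted arms had fewer than 2 reads. 56 unlisted arms were seen in every library and 99 in a single one. Those with 10 reads or more numbered 61 and held 93.6% of the reads.

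The 310 unlisted arms came from 148 precursor names, 105 of which had 1 sequence. The 4 names with the most sequences were stu-MIR8021 with 34, sly-MIR1916 with 28, sly-MIR9469 with 20 and stu-MIR7984a with 17. These 99 sequences held 639 reads, and most carried named substitutions. Of all unlisted arms, 272 carried 1 to 3 named substitutions and 38 carried none. The 38 without a substitution held 47.2% of the reads. Substitutions numbered 422 in all, and 60.7% were transitions.

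By family, 112 unlisted arms belonged to miRNA families numbered as potato-lineage ones, 129 to families of the Solanaceae, 64 to conserved plant families and 5 to others. The 64 conserved ones held 35.7% of the reads, the potato-lineage ones 37.4% and the Solanaceae ones 24.8%. In the grouping deposited with the table, 111 unlisted arms belonged to the groups whose sequences match potato precursors or form a hairpin in the potato genome, and these held 76.1% of the reads. The other 199 were in the groups with a genome match but no hairpin (116) or without a match to the potato genome (83), and they held 23.9%.

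By length, 57.1% of the 310 unlisted arms were of 23 to 25 nt, 17.4% of 20 to 22 nt and 23.9% of 15 to 19 nt. Among the 212 listed miRNAs these shares were 27.8%, 65.6% and 4.25%. Among the 388 predicted new sequences they were 70.6%, 21.4% and 5.41%, so a majority of 23 to 25 nt was not particular to the unlisted arms. The 147 unlisted arms of 24 nt held 42.6% of the reads, and the 34 of 21 nt held 35.4%, of which sly-MIR159-p5 was the major one. A further 36 had the minimum length of 15 nt and held 10.3%. Altogether 65 unlisted arms lay outside 18 to 25 nt. The first base was A in 46.1% and T in 34.8% of the unlisted arms, compared to 26.9% and 55.7% of the listed miRNAs. Among the 23 to 25 nt ones 55.4% began with A, and among the 20 to 22 nt ones 46.3% began with T. These shares describe sequences that share precursors and were not tested.

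**Figure D1:**
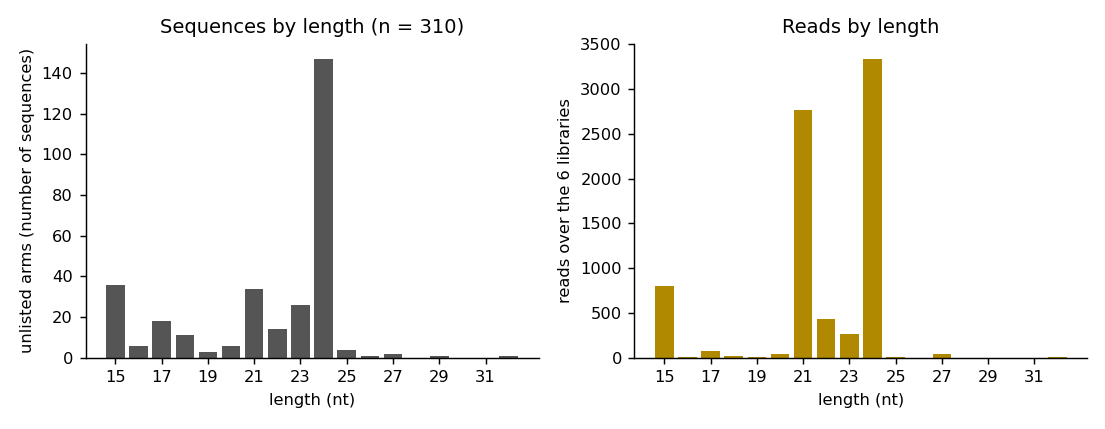
Unlisted arms by length (x axis, nt), as the number of sequences (left, n = 310) and as reads summed over the 6 libraries (right). The 24 nt bar is the highest in both, with 147 sequences and 3336 reads, while the 34 sequences of 21 nt hold 2769 reads and the 36 of 15 nt hold 805.

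Where an unlisted arm and a listed sequence of its precursor were both in the table, their pairing was examined with a duplex prediction from the sequences alone. An unlisted arm with at least 3 reads and a listed sequence from its precursor was found in 40 cases, and 16 of these formed 15 base pairs or more. The 40 included stu-MIR8039 and several sequences each of stu-MIR8021 and sly-MIR1916, set against the same listed sequence of their name. In these names unlisted sequences shared 9 nt or more with the listed one on the same strand. They are thus not shown to be opposite arms, and they lower the share that paired. Of the 16, 3 had an overhang of 2 nt at both 3' ends. Another 4 had an overhang of 2 nt at both 5' ends, and 1 was blunt. The 3 with 3' overhangs were sly-MIR5300-p3_1ss14TC, stu-MIR6025-p3 and sly-MIR171d-p5. The 4 with 5' overhangs were sly-MIR167b-p3, stu-MIR8044-p3_1ss13GC, stu-MIR4376-p3 and sly-MIR390b-p3_1ss1TC. Of each kind, examples are printed with their listed partners, seeds in capitals.
sly-MIR5300-p3_1ss14TC: tGGTATGCtttgactgggaaag
sly-miR5300: tCCCCAGTccaggcattccaac
stu-MIR6025-p3: tGTTATCTcagtgttggcatg
stu-miR6025: tACCAACAattgagataacatc
sly-MIR167b-p3: cATCAGGTcatctagcagctt
sly-miR167b-5p: tAAAGCTGccagcatgatctgg
The miR5300 and miR6025 families are known in Solanaceae to target resistance genes of the NBS-LRR type, and miR167 targets auxin response factors. sly-MIR5300-p3_1ss14TC and sly-miR5300 formed 16 base pairs with a predicted energy of -25.4 kcal/mol. stu-MIR6025-p3 and stu-miR6025 formed 17, with a complementary run of 10 nt and -22.5 kcal/mol. sly-MIR167b-p3 and sly-miR167b-5p also formed 17, at -23.4 kcal/mol. The most abundant unlisted arm was different: sly-MIR159-p5 formed 12 base pairs with sly-miR159, with a longest complementary run of 4 nt and -9.9 kcal/mol. The tobacco-named nta-MIR159-p5_1ss21AT, with 3 reads, formed 15 base pairs with nta-miR159_R+1 at -21.7 kcal/mol.

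Unlisted sequences from both arms were found for 32 precursor names. In 0 of the 32 did the most abundant p5 and p3 sequences pair with 2 nt overhangs at both ends. No minimum of reads was set here, and some pairs were of 15 nt sequences with 1 read each, such as nta-MIR6144 and stu-MIR8013. The 0 therefore says little about pairs with so few reads. A complementary run of 13 nt or more was found in 4, and a run of 9 nt or more on the same strand, which a 5' arm and a 3' arm do not normally share, in 6. Several of these are printed with the run in capitals.
stu-MIR8019-p5_1ss8AG: ATTCTTTGTGAAACGGAGGGAGTA
stu-MIR8019-p3_2ss15AC17AC: TACTCCCTCCGTTTCACAAAGAAT
sly-MIR9469-p5_1ss19AG: aAAAGCTAGCTCATGAGGGGAGGT
sly-MIR9469-p3_2ss7TC17TC: aACCTCCCCTCATGAGCTAGCTTT
stu-MIR1886a-p5_1ss4AG: ATGGAATCAGCGTttggacatgc
stu-MIR1886a-p3_1ss14TC: ttttACGCTGATTCCATctcatga
stu-MIR7985-p5: tttgccttctgggtcGAGCTCGTC
stu-MIR7985-p3_2ss13CT17GA: GAGCTCGTCgcatcggacttgcct
stu-MIR7984a-p5: ttacccccCTGCACTATTTAATAG
stu-MIR7984a-p3_1ss8CT: ttacccctCTGCACTATTTAATAG
The 2 sequences of stu-MIR8019 were perfect complements over all 24 nt, without an overhang. Those of sly-MIR9469 were complementary over 23 nt and those of stu-MIR1886a over 13 nt. The 2 sequences of stu-MIR7985 instead lay on the same strand. The last 9 bases of the p5 sequence were the first 9 of the p3 sequence. Those of stu-MIR7984a shared a run of 16 nt on the same strand and differed only in the 1 base before it. They are thus not shown to be different arms. Complementarity also crossed precursor names, as stu-MIR7984b-p5_1ss2TG and stu-MIR7984d-p3_1ss20TG were complementary over 23 nt. sly-MIR166b-p5, in turn, shared 20 nt with the listed potato sequence stu-miR166a-5p, from which it was shifted by 1 base. The precursor that its reads come from is therefore not shown.

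The levels of single unlisted arms were then compared between control and KPhi leaves. Reads per library are given in the order C1, C3 and C5 for control and T2, T4 and T6 for KPhi, and levels as CPM, table reads scaled by library size with TMM factors. The TMM factor of T4 was 1.85, against 0.746 (C3) to 0.947 (C1) in the other libraries, so it lowered the CPM of T4. sly-MIR159-p5 had 649, 431 and 351 reads in the control libraries and 257, 235 and 447 in the KPhi libraries. Its level was 1120, 1235 and 1038 CPM in control and 767, 790 and 861 CPM in KPhi. All KPhi libraries were below all control libraries at this scaling. The listed arm of the precursor, sly-miR159, which targets GAMYB transcription factors in plants, had overlapping groups, from 10956 to 26386 CPM in control and from 10398 to 18622 CPM in KPhi.

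stu-MIR7985-p5 had 98, 76 and 69 reads in control and 49, 36 and 87 in KPhi. Its level was 169.1, 217.8 and 204.1 CPM in control and 146.2, 121.0 and 167.5 CPM in KPhi, so that the groups lay next to each other without overlap. The overlapping sequence stu-MIR7985-p3_2ss13CT17GA was at 412.4, 392.6 and 508.8 CPM in control and 256.5, 346.1 and 485.1 CPM in KPhi, and its groups overlapped. sly-MIR166b-p5, the arm opposite to a regulator of class III HD-ZIP transcription factors, had 22, 14.5 and 15.3 reads in control and 5.83, 9.67 and 14.3 in KPhi. Its level was 38.0, 40.1 and 44.4 CPM in control and 17.9, 33.6 and 27.0 CPM in KPhi, without overlap. The listed stu-miR166a-5p, which shares 20 nt with it, had overlapping groups. That sequence was at 521, 3066 and 521 CPM in control and 268, 1062 and 1234 CPM in KPhi. sly-MIR159-p5, stu-MIR7985-p5 and sly-MIR166b-p5 are among the sequences that the study lists as lower after KPhi, a choice made on these libraries, so their order here is not independent evidence. For stu-MIR7985-p5 the study also reports a decrease by quantitative PCR, and an opposite pattern of its predicted target, a Spotted leaf protein gene. Those PCR values were not part of the data compared here.

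sly-MIR167b-p3 was the only tested unlisted arm with all KPhi libraries above all control ones at this scaling, and with unrounded reads 0 were. It had 18, 6 and 6 reads in control and 11, 12 and 17 in KPhi, or 31.1, 17.2 and 17.7 CPM against 32.8, 40.3 and 32.7 CPM. The gap between the groups was small, as C1 was close to T2 and T6. Its listed partner sly-miR167b-5p also had KPhi libraries above control ones, at 53.5, 37.3 and 59.2 CPM in control and 122, 84.0 and 82.8 CPM in KPhi. The fifth unlisted arm without overlap, stu-MIR7984a-p5, had 36.2, 25.8 and 35.5 CPM in control and 23.9, 13.4 and 23.1 CPM in KPhi.

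**Figure D2:**
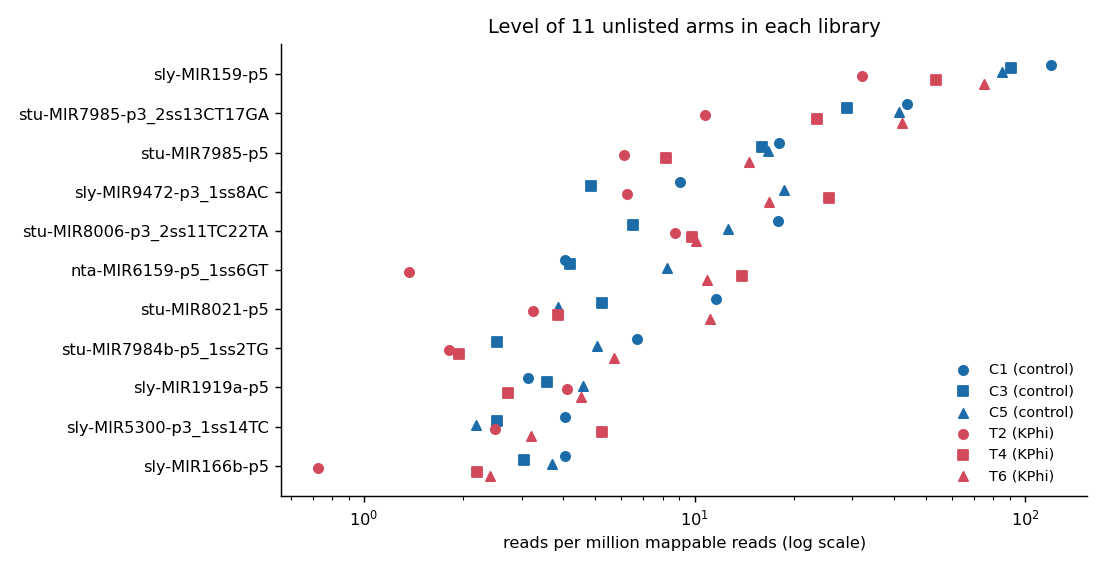
Level of the 10 most abundant unlisted arms and of sly-MIR166b-p5 (rows) in each library, in RPM (reads per 1000000 mappable reads, log scale; blue control, red KPhi, 1 point per library). sly-MIR159-p5 lies at 84.9 to 119 in control and 32 to 75.2 in KPhi, and the groups of most other arms overlap.

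None of these differences passed the test. The test took the 165 sequences of the table that reached 10 reads in 3 or more libraries. Of these, 23 were unlisted arms, which held 80.2% of the reads of all 310. In edgeR's quasi-likelihood test with Benjamini-Hochberg adjustment over the 165, 0 of the 23 were called at an adjusted p under 0.05, as were 0 of the 165 (0%). An unadjusted p under 0.05 was reached by 0 of the 23 and by 16 of the 165 (9.7%), 9 of them higher (5.45%) and 7 lower (4.24%) in KPhi. DESeq2 and limma on the deposited normalized values likewise gave 0 of the 23 at either threshold. The smallest adjusted p among the 23 was 0.59. The median standard error of a log2 fold change was 0.50 among them, so a change of that size could not be told from the spread between libraries.

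Among the arms described, sly-MIR159-p5 had a log2 fold change of KPhi against control of -0.49 ± 0.40 (SE), stu-MIR7985-p5 of -0.44 ± 0.45 and sly-MIR166b-p5 of -0.64 ± 0.47, with adjusted p of 0.61, 0.698 and 0.61 by edgeR's quasi-likelihood test. It was 0.64 ± 0.47 for sly-MIR167b-p3 and -0.67 ± 0.47 for stu-MIR7984a-p5. The extremes were -0.85 ± 0.69 for sly-MIR6023-p3_1ss13GT, whose reads ranged from 1 in T4 to 40 in C1, and 0.93 ± 0.61 for sly-MIR9472-p3_1ss8AC. Counted over the 23, 14 values were below 0 (60.9%) and 9 above, next to 56.4% below 0 among all 165. The median was -0.27, beside -0.13 over all 165.

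The groups did not overlap in 5 of the 23, of which 4 were lower and 1 higher in KPhi. Over the 165 sequences this was the case for 28 (17%), with 15 lower (9.09%) and 13 higher (7.88%). Without T4 there were 3 such unlisted arms, all lower, without any scaling beyond the table total 1, which was higher, and with mappable reads as library size 3, all lower. The direction of small differences depended on the scaling, as the median over all 165 sequences was 0.35 with the table total alone and -0.49 with mappable reads. With the table total alone, the values of sly-MIR159-p5 and stu-MIR7985-p5 became 0.03 and 0.02.

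**Figure D3:**
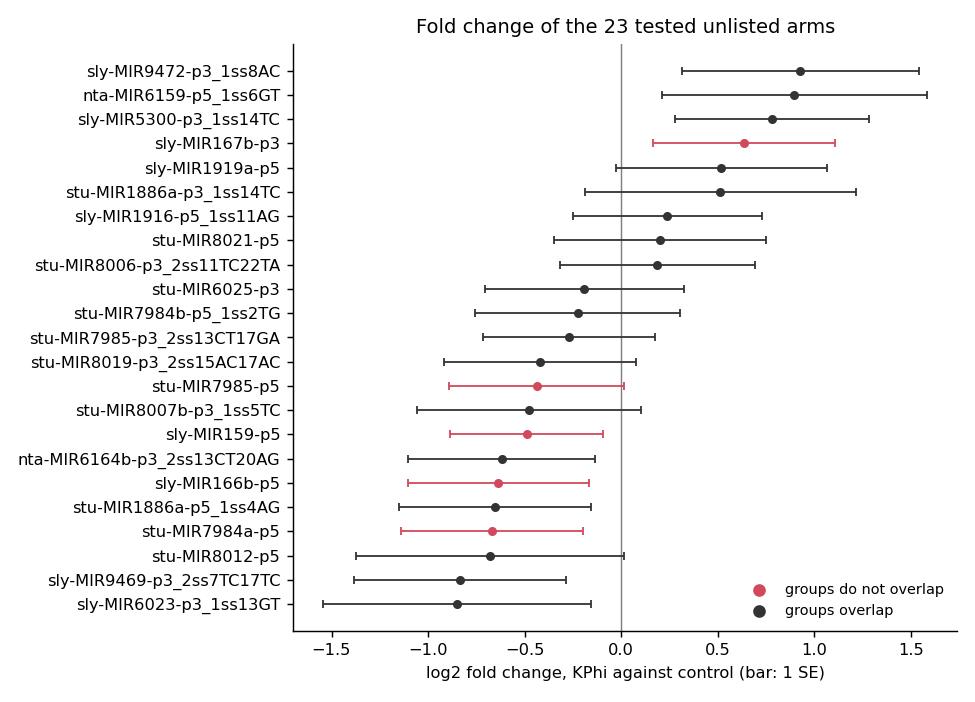
Log2 fold change of KPhi against control (x axis) of the 23 tested unlisted arms (rows), with bars of 1 SE from edgeR. Red marks the 5 arms whose groups do not overlap, and values run from -0.85 to 0.93.

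By family, 7 of the 9 tested potato-lineage arms had values below 0 (median -0.42), 4 of the 9 Solanaceae ones (median 0.24), 2 of the 3 conserved ones and 1 of the 2 others. Passing the test were 0 in each. Over all 165 sequences 56.4% had values below 0. The family counts depended on the scaling. With the table total alone, both stu-MIR7985 sequences, which overlap each other, and stu-MIR7984b-p5_1ss2TG had values above 0. With mappable reads, stu-MIR8006-p3_2ss11TC22TA and stu-MIR8021-p5 had values below 0. Both tested arms of 15 nt had values above 0, as did 4 of the 14 of 23 to 25 nt and 3 of the 7 of 20 to 22 nt. Among the remaining abundant arms, stu-MIR8006-p3_2ss11TC22TA had 97, 31 and 52 reads in control and 70, 43 and 60 in KPhi. stu-MIR8021-p5 had 63, 25 and 16 reads in control and 26, 17 and 66 in KPhi. Its highest control and highest KPhi library were nearly equal in reads, and stood at 108.7 CPM (C1) and 127.1 CPM (T6). stu-MIR7984b-p5_1ss2TG had 36.5, 12 and 21 reads in control and 14.5, 8.5 and 34 in KPhi. sly-MIR1919a-p5 had 17, 17 and 19 reads in control and 33, 12 and 27 in KPhi. The groups overlapped in all 4.

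For 9 precursor names a sequence named p5 and one named p3 each had 10 reads or more. The 2 did not always follow each other across the libraries. stu-MIR1886a-p5_1ss4AG had 26, 13 and 20 reads in control and 8, 13 and 12 in KPhi, while its complement stu-MIR1886a-p3_1ss14TC had 16, 5 and 10 in control and 23.5, 2.5 and 13 in KPhi, with T2 the highest. stu-MIR8019-p3_2ss15AC17AC had 20, 14 and 17 reads in control and 12, 5 and 20 in KPhi, and its perfect complement stu-MIR8019-p5_1ss8AG had 10, 3 and 7 in control and 1, 8 and 9 in KPhi. sly-MIR9469-p3_2ss7TC17TC had 21, 19 and 13 reads in control and 5, 4 and 21 in KPhi. In CPM it was at 36.2, 54.5 and 38.5 in control and 14.9, 13.4 and 40.4 in KPhi, so T2 and T4 were low and T6 lay within the control range. Its p5 partner had 12, 1 and 4 reads in control and 3, 2 and 11 in KPhi. Of the other names, stu-MIR6023 gave sequences of 27 and 32 nt with 19 and 8 reads in T4, the highest library for both. stu-MIR7984a-p3_1ss8CT, which differs from stu-MIR7984a-p5 in 1 base, had 10 of its 13 reads in T2. sly-MIR9475 gave 2 sequences of 15 nt with 44 and 27 reads, and nta-MIR6164b 2 sequences with 62 and 33 reads.

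The summed level of unlisted arms was compared by length class in RPM, reads per 1000000 mappable reads. The 54 arms of 20 to 22 nt stood at 160, 112 and 116 in the control libraries (C1, C3, C5) and at 49.5, 75.0 and 106 in the KPhi libraries (T2, T4, T6). Control libraries averaged 129 ± 26.3 (SD, n = 3) and KPhi libraries 77.0 ± 28.5 (SD, n = 3). All KPhi libraries were lower at this scaling, and the exact permutation test (two-sided) gave p = 0.1, the smallest value that 3 libraries against 3 can give. Most of these reads were of sly-MIR159-p5. As a share of table reads, a denominator added after the data were seen, the same class was at 0.142%, 0.114% and 0.127% in control and at 0.108%, 0.205% and 0.114% in KPhi. There the groups overlapped, T4 was the highest library, and the KPhi mean was 0.0147 percentage points higher (exact permutation p = 1). The 177 arms of 23 to 25 nt averaged 137 ± 34.5 in control and 90.9 ± 40.0 in KPhi (SD, n = 3, exact permutation p = 0.2), and the groups overlapped. Their share of table reads was also higher in KPhi on average, by 0.0267 percentage points (exact permutation p = 0.6).

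The 74 arms of 15 to 19 nt were at 21.5, 11.9 and 36.7 in control and 18.3, 51.0 and 37.7 in KPhi, with T4 the highest and an exact permutation p = 0.4. Arms of 15 nt held most of these reads, and sly-MIR9472-p3_1ss8AC was the leading one. It had 49, 23 and 77 reads in control and 50, 112 and 100 in KPhi. nta-MIR6159-p5_1ss6GT, also of 15 nt, had 22, 20 and 34 reads in control and 11, 61 and 65 in KPhi. Both had overlapping groups, and both were deposited in a group of sequences without a match to the potato genome, as were 28 of the 36 arms of 15 nt in this and the companion group. T4 was also the library with 33.5% of its raw reads above 32 nt, and the part of this in the levels of the short arms was not tested.

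**Figure D4:**
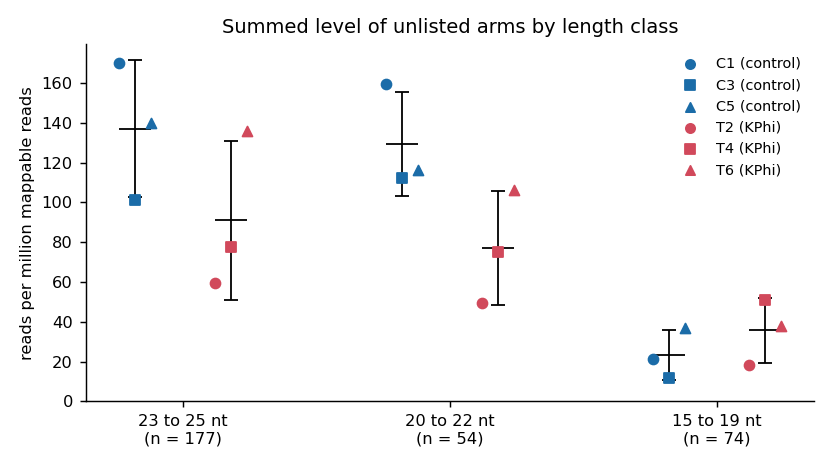
Summed level of unlisted arms in 3 length classes (x axis), in RPM, with 1 point per library and the mean ± SD of each group of 3 in black. The 20 to 22 nt class is the only one without overlap at this scaling (112 to 160 in control, 49.5 to 106 in KPhi), and T4 is the highest library of the 15 to 19 nt class.

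All unlisted arms together were 0.313%, 0.230% and 0.321% of the table reads in control and 0.283%, 0.574% and 0.301% in KPhi. Only T4 stood out, and the difference between the group means was 0.0979 percentage points (exact permutation p = 0.6), or 0.00386 without T4. As a share of mappable reads they were 0.0352%, 0.0227% and 0.0293% in control and 0.0129%, 0.0210% and 0.0281% in KPhi (exact permutation p = 0.2). The direction thus differed between the denominators. When the miR166 family was left out of the table total, the difference was -0.29 percentage points (exact permutation p = 0.3).

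A ratio of the arms within a library does not depend on such a scaling. An unlisted arm and a listed sequence from the same precursor name were both present for 53 precursor arms. Where the listed name states no arm, as for sly-miR159, it was taken as the other arm, which the files do not show. Among the 53, unlisted sequences of 3 names shared a run of 9 nt or more with the listed one on the same strand. These names were sly-MIR1916, stu-MIR8021 and stu-MIR8039, and their sequences are not shown to be opposite arms. These, and names whose p5 and p3 sequences would be set against the same listed ones, were left out of the counts, a choice made after the values were seen. Of the 46 precursor arms that were kept, the listed sequence had more reads in 35, the unlisted arm in 9, and in 2 they were equal. Among the 15 whose unlisted arm had 10 reads or more, the unlisted arm was ahead in 7. This minimum was set on the unlisted arm alone and so favours pairs where it is ahead. The 7 included stu-MIR6025-p3 with 54 reads against 6 of stu-miR6025, stu-MIR7984c-p3_1ss11TC with 44.5 against 9.5, and stu-MIR8044-p3_1ss13GC with 31 against 5. stu-MIR6025-p3, one of the arms printed with its duplex, had 14, 5 and 11 reads in control and 4, 8 and 12 in KPhi, so it exceeded its listed partner in both groups.

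For 10 precursors each arm had at least 10 reads, and the log2 ratio of unlisted to listed reads (0.5 added to each) was compared between the groups. In 4 of the 10 the listed name states no arm. Some pairs formed fewer than 15 base pairs in the duplex prediction. These were sly-MIR1919a (14), sly-MIR159 and stu-MIR8007a (12 each), stu-MIR8006 (9), stu-MIR6022 (7) and stu-MIR8007b (4). They are not shown to be the arms of 1 duplex. The pairs of sly-MIR167b, sly-MIR5300, stu-MIR4376 and stu-MIR7983 formed 16 or 17. The listed arm had more reads in 9 of the 10. The imbalance was greatest for sly-MIR5300, with 105 reads of the p3 arm against 45415 of sly-miR5300. Reads of sly-MIR5300-p3_1ss14TC were 22, 12 and 9 in control and 20, 23 and 19 in KPhi, while sly-miR5300 had 4401, 3089 and 2963 in control and 27203, 3300 and 4459 in KPhi. The excess of the listed arm in T2 had no counterpart in the p3 arm, whose log2 ratio was -10.37 in T2 and between -8.29 and -7.13 in the other 5 libraries.

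For sly-MIR159 the log2 ratio was -4.45, -3.15 and -4.67 in control and -3.76, -4.25 and -4.43 in KPhi, so that C3 had relatively the most p5 reads. The means were -4.09 ± 0.82 and -4.15 ± 0.35 (SD, n = 3 each, exact permutation p = 1). For sly-MIR167b, whose 2 arms both were higher in KPhi in CPM, the ratio was -1.09 ± 0.34 in control and -1.40 ± 0.42 in KPhi (SD, n = 3 each, exact permutation p = 0.5). The ratio of stu-MIR8006 averaged -2.42 ± 0.81 in control and -1.83 ± 0.65 in KPhi (SD, n = 3, exact permutation p = 0.5). stu-MIR8007b was the precursor with more unlisted reads, 69.5 of stu-MIR8007b-p3_1ss5TC against 20 of the listed 5' arm, and its ratio was above 0 in all 6 libraries, from 0.94 to 2.81.

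The remaining 5 precursors were sly-MIR1919a, stu-MIR4376, stu-MIR6022, stu-MIR7983 and stu-MIR8007a. miR4376 is known in tomato to target a calcium-transporting ATPase, and miR6022 receptor-like proteins. stu-MIR4376-p3 had 1, 0 and 5 reads in control and 6, 0 and 3 in KPhi, so its ratio rested on few reads. stu-MIR6022-p5 had 13, 5 and 6 reads in control and 8, 4 and 19 in KPhi. Over the 10 precursors the ratio was higher in KPhi in 5 and lower in 5. The groups overlapped in all 10 (0% without overlap), and every p adjusted over the 10 was 1 (exact permutation test, two-sided). Leaving out T6 gave 2 of the 10 precursors without overlap, and leaving out C3 or C5 gave 1 each. With fewer libraries in a group, overlap was also rarer among all sequences tested.

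**Figure D5:**
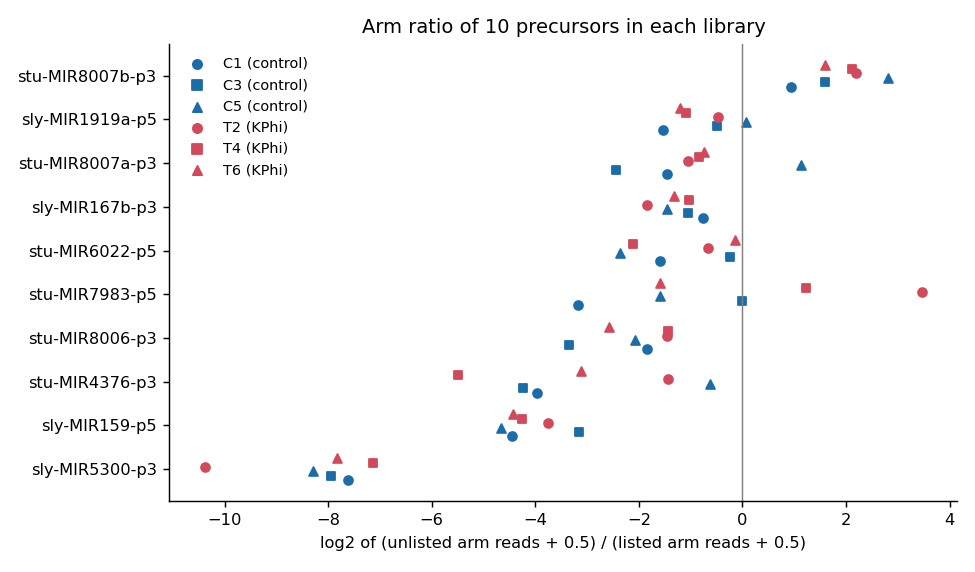
Log2 ratio of unlisted to listed arm reads, with 0.5 added to each (x axis), for 10 precursors (rows) in each library (blue control, red KPhi). Values below 0 mean more reads of the listed arm, stu-MIR8007b-p3 is the only precursor above 0 in all libraries, and T2 lies apart at -10.37 for sly-MIR5300-p3.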

How the data were processed

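Small RNA of 3 control and 3 KPhi libraries of potato leaves was analysed, grouped by their labels. The authors made TruSeq libraries and processed the reads with ACGT101-miR (version not given in the sources used here). The deposited read count of each filtering step gave the mappable reads (15 to 32 nt). The deposited expected counts are reads per sequence and library, some of them fractional, from BLAST to precursors of miRBase 21. The methods describe 18 to 25 nt and 1 mismatch, which 65 and 144 of the 310 unlisted arms exceed by length and by named substitutions. For the deposited signal (normalized values) the authors divided each library's reads by 1 factor and wrote 0.001 for 0, and it served an alternative only. A deposited file of p-values and means from the authors' own comparison was not used.

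Reads were rounded to whole numbers. edgeR 4.0.16 (TMM, quasi-likelihood test, Benjamini-Hochberg adjustment, threshold 0.05) was run on the 165 sequences that reached 10 reads in 3 or more libraries, and was tested on simulated data. For shares and arm ratios (0.5 reads added) an exact permutation test, two-sided, was used. Pairing was predicted with RNAduplex of ViennaRNA 2.7.2. limma 3.58.1, DESeq2 1.42.0, R 4.3.3, Python 3.11.15, scipy 1.17.1 and pandas 2.3.3 were also used. Named in the text are the 10 most abundant unlisted arms, 3 that the study lists, those in arm ratios and those with both arms at 10 reads or more, and examples chosen after their values were seen. The members and family lists were chosen with earlier results of these data known. No potato genome was used, so no positions are given. Intervals and errors reflect the spread between libraries, and reads have no molecular identifiers.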

Additional observations from a re-analysis of the deposited data

How the results depend on the processing

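No unlisted arm was called at an adjusted p under 0.05 under any of the 14 alternatives. These were RLE factors, table total, mappable reads, no filter, 10 reads in every library, fractional reads, DESeq2, limma and leaving out each library. Without a filter, 7 of 255 reached an unadjusted p under 0.05 (2.75%), against 46 of all 841 sequences (5.47%). When 1 library was left out 0 to 1 did so (0% to 5.56%, against 2.88% to 14.6% of all sequences tested). Groups without overlap numbered 1 of 23 with the table total (4.35%, against 15.8% of all sequences tested), 3 of 23 with mappable reads (against 22 of 165, 13.3%), 17 of 255 without a filter (6.67% against 9.04%), 2 of 8 with 10 reads in every library (against 19 of 90, 21.1%) and 3 to 7 with 1 library left out. The median log2 fold change became 0.10 with the table total, 0.15 without a filter and 0.21 with 10 reads in every library (8 tested), and ran from -0.21 to 0.27 with 1 library left out. It was above 0 without C1 (0.27, 18 tested) and without C5 (0.05, 19 tested). Fewer arms passed the filter there. The share of table reads differed by -0.29 points without the miR166 family and by 0.00386 to 0.149 with 1 library left out. As a share of table reads, an alternative chosen after seeing the data, the difference of the length classes was 0.0147 points for 20 to 22 nt and 0.0267 for 23 to 25 nt, both reversed, and 0.0495 for 15 to 19 nt. Precursors whose arm ratios did not overlap numbered 0 to 2 with 1 library left out.

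Of 292 alternative fold changes of the 23 tested arms, 17 had the other direction and 0 an adjusted p under 0.05 (smallest 0.307, over edgeR's quasi-likelihood test, DESeq2 and limma). With the table total the value was 0.025 for sly-MIR159-p5, 0.27 for stu-MIR6025-p3, 0.10 for stu-MIR7984b-p5_1ss2TG, 0.22 for stu-MIR7985-p3_2ss13CT17GA and 0.018 for stu-MIR7985-p5. With mappable reads it was -0.25 for sly-MIR1916-p5_1ss11AG, -0.15 for stu-MIR1886a-p3_1ss14TC, -0.37 for stu-MIR8006-p3_2ss11TC22TA and -0.19 for stu-MIR8021-p5. With 1 library left out, the range was -0.50 (without T2) to 1.16 for stu-MIR1886a-p3_1ss14TC, -0.30 to 0.082 (without T2) for stu-MIR6025-p3, -0.52 to 0.13 (without T4) for stu-MIR7984b-p5_1ss2TG, -0.061 (without T2) to 0.51 for stu-MIR8006-p3_2ss11TC22TA, -0.75 to 0.039 (without C5) for stu-MIR8007b-p3_1ss5TC and -0.090 (without T6) to 0.74 for stu-MIR8021-p5.

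Of 90 alternative differences in arm ratio, 11 had the other direction, all with 1 library left out. The ranges were -0.35 to 0.41 (without C3) for sly-MIR159, -0.72 to 0.086 (without C5) for sly-MIR1919a, -1.16 to 0.46 (without T2) for sly-MIR5300, -1.36 to 0.76 (without C5) for stu-MIR4376, -0.062 (without C5) to 1.00 for stu-MIR6022, -0.72 (without C3) to 1.07 for stu-MIR8007a and -0.23 (without C1) to 0.71 for stu-MIR8007b. Apart from settings that test fewer or more sequences, the cause was not tested.

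No paired analysis was made, because the labels do not state whether control and KPhi libraries belong together in pairs. Depth limits most of these sequences, as 287 of the 310 did not pass the filter.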
